A study of Mus musculus with 23 samples.

Results

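The genes that build sterols and fatty acids were followed through RNA-seq libraries of mouse small intestine, taken from animals that had been given busulfan and then saline or a fecal microbiota transplant (FMT). They are a list of 29 genes, chosen by what their products do, but with earlier results of these data known. It holds 18 enzymes of cholesterol synthesis from acetyl-CoA to cholesterol and 4 regulators or carriers of sterol. The other 7 are enzymes that make, elongate or desaturate fatty acids. All 29 were found by their gene numbers among the 19215 gene rows of the expression table, all were above 0 in every library, and all 29 were among the 11337 genes tested, whose mean level reached 1 FPKM (fragments per kilobase of transcript, scaled to the library total) or more.

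Cells make cholesterol from acetyl-CoA through mevalonate, squalene and lanosterol, and they make fatty acids from acetyl-CoA through malonyl-CoA. Both routes are controlled by the sterol regulatory element-binding proteins (SREBPs), membrane proteins of the endoplasmic reticulum. When the membrane holds little sterol, SREBPs are carried to the Golgi, cut, and move to the nucleus, where they raise transcription of the enzymes, and when sterol is plentiful the INSIG proteins hold them back. The small intestine both makes cholesterol and takes it up from the diet and from bile, and it packs sterol and fatty acid into chylomicrons.

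Samples fell into 8 groups, 4 treatments in each of 2 sets that are told apart by a code in the sample names whose meaning was not given in the sources used here. All animals were ICR mice, and the labels give the tissue as intestine. By the study's methods, the recipients were 3-week-old males injected once with busulfan, an alkylating drug, at 40 mg/kg. They then received saline (Sa) or, once daily for 1 week, luminal content pooled from donors dosed with water (Con-FMT) or with alginate oligosaccharide (AOS) at 10 mg/kg (A10-FMT) or 100 mg/kg (A100-FMT), and were collected at 5 weeks of age. The donors of each treatment were 30 mice whose content was combined, so that recipients of a treatment shared 1 inoculum. The schedule was tied to set 1 through its code alone, and for set 2 no age or time was given. Each group had 3 libraries except Sa of set 1, which had 2, so that 23 libraries entered. No group without busulfan was analysed here.

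The libraries differed in ways that bear on these genes. One of the Sa libraries of set 1, replicate 3, stood apart, with correlations of 0.944 to 0.965 with the other libraries and a trend with the GC content of transcripts (Spearman rho of its deviation with GC content 0.69, against -0.22 to 0.22 in the other 22), and its title and its description named different columns of the table. Of 6 adipocyte genes in the table, Adipoq, Plin1, Fabp4 and Plin4 had means of 0.00174, 0.00348, 0.00652 and 0.0109 FPKM, whereas Cidec and Lipe, which act on lipid droplets, had 14.0 and 22.8 FPKM and made up the summed level of 26.6 to 63.3 FPKM. The summed levels of 7 smooth muscle, 7 enteric neuron and glia and 7 acinar genes were at most 2.11, 0.99 and 2.80 FPKM in any library. Summed levels of 9 enterocyte genes ran from 4079 to 10759 FPKM and those of 7 crypt proliferation genes from 215 to 327 FPKM. In bulk tissue, fewer cells of a type and less RNA per cell cannot be told apart.

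Transcripts of the listed steps were all present, at mean levels from 10.2 to 156 FPKM, a scale per transcript length on which genes can be set side by side. In the mevalonate part, Fdps, the farnesyl diphosphate synthase, was the highest of all 29 at 156 FPKM on average over the 23 libraries. Hmgcs1, the cytosolic HMG-CoA synthase, was at 74.5 FPKM and Acat2, the thiolase that joins acetyl-CoA units, at 51.8 FPKM. The steps between them and Fdps were lower, with Idi1, the isopentenyl diphosphate isomerase, at 36.5, Pmvk, the phosphomevalonate kinase, at 32.6, Mvd, the decarboxylase, at 32.1 and Mvk, the mevalonate kinase, at 23.6 FPKM. Among the steps from squalene to cholesterol, Msmo1, the methylsterol oxidase, Ebp, a sterol isomerase, and Sqle, the squalene epoxidase, were highest at 68.2, 58.1 and 57.5 FPKM. Cyp51, the lanosterol demethylase, Nsdhl, a sterol dehydrogenase, and Dhcr7, the enzyme of the last reduction, lay at 42.4, 38.8 and 37.9 FPKM. Squalene synthase Fdft1 was at 29.1 FPKM and the sterol desaturase Sc5d at 27.8 FPKM. The lowest levels of the list were those of Lss, the lanosterol synthase, Tm7sf2, a sterol reductase, and Hsd17b7, a keto reductase, at 14.4, 14.4 and 10.2 FPKM.

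Of the regulators, Srebf2, which encodes the SREBP best known for the sterol genes, was at 53.3 FPKM and Srebf1, which encodes the forms best known for fatty acid genes, at 33.9 FPKM. Insig1, the sterol-sensing retention protein and itself a classic SREBP target, was at 52.7 FPKM, and Stard4, a cytosolic sterol carrier, at 45.1 FPKM. In the fatty acid part, the desaturase of polyunsaturated chains Fads2 was at 108 FPKM and its partner Fads1 at 23.4 FPKM. The stearoyl-CoA desaturase Scd2 was at 86.5 FPKM, whereas the related gene Scd1, the main form in liver and fat, averaged 0.290 FPKM and was below the level tested. Elovl6, which elongates palmitate, was at 38.1 FPKM, the fatty acid synthase Fasn at 30.5, the citrate lyase Acly at 29.7 and the acetyl-CoA carboxylase Acaca at 15.8 FPKM. By mean level the members stood between percentile 43.4 and percentile 94.6 of the genes tested.

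Promoter sequence is shown for the members that differed between the sets and for which RefSeq windows on GRCm38.p6 were at hand, since these genes are textbook targets of SREBPs and of the factors that act beside them. Windows from 250 bases before to 50 bases after the start were found for 23 of the 29 members, 28 windows in all, and none for Fdps, Fdft1, Sqle, Stard4, Scd2 and Fads1. The 250 bases before the start are printed 5′ to 3′ on the strand of the gene, with capitals for each match to the SRE-like letters CACNCCAC or to CCAAT, on either strand. They lie at chr13:119690101-119690350 (plus strand), chr5:28071162-28071411 (plus), chr13:8885356-8885605 (plus), chr8:64733579-64733828 (minus) and chr3:129532136-129532385 (plus), and are of the reference mouse and not of the ICR animals.
Hmgcs1: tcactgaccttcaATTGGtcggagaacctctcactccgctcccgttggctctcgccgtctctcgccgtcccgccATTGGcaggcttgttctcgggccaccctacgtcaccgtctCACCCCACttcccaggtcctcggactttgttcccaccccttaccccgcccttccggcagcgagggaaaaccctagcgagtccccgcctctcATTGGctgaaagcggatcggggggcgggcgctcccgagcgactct
Insig1: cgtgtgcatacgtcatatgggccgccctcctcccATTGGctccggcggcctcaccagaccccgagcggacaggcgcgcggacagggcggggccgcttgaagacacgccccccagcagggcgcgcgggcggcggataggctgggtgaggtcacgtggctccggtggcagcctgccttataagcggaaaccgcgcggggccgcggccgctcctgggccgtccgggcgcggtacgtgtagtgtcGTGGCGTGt
Idi1: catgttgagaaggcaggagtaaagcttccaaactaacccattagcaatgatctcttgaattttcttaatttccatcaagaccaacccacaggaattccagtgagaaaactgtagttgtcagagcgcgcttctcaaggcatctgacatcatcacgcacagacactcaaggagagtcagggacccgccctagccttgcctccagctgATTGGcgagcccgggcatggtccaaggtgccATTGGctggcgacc
Msmo1: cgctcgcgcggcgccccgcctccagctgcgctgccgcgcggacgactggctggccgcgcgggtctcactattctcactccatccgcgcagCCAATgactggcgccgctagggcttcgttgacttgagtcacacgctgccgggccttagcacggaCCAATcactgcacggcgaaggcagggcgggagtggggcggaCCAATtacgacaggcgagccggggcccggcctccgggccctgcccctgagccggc
Elovl6: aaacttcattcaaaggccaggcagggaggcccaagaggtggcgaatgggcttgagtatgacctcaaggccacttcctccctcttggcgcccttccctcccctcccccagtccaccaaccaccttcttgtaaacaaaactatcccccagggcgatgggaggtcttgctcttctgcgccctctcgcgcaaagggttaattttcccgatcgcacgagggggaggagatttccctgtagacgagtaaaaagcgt
The Hmgcs1 stretch holds 1 SRE-like match and 3 CCAAT matches, and that of Insig1 holds 1 of each. The Idi1 stretch holds 2 CCAAT matches and that of Msmo1 holds 3, with no SRE-like match in either. In the Elovl6 stretch neither set of letters is found. Over the full windows, SRE-like letters were in 3 of the 28 member windows (Hmgcs1, Insig1 and Acat2) and in 6.24% of all 32851 windows. CCAAT was in 20 of the 28 member windows against 37.4% of all windows, and GGGCGG, the letters of a GC box, in 21 of the 28 against 35.7%. These are matches of letters and were not tested for binding.

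The members moved together from library to library within groups. For this, each log2 value was taken as its difference from the mean of its group, so that differences between groups do not enter. Over the 23 libraries, the median Pearson r of these differences was 0.59 over all pairs of members. It was 0.65 between sterol enzymes, 0.63 between fatty acid enzymes and 0.56 across both, against 0.0085 over all pairs of genes tested. These are descriptions, because all pairs share the same libraries. The next values leave out both Sa libraries of set 1, so that 21 libraries remained. With the mean of the other sterol enzymes, r was highest for Fdft1 at 0.96, Sqle at 0.96 and Mvd at 0.94. Among the other members, Insig1 had 0.93 and Scd2 0.91. The lowest r values were those of Srebf1 at 0.089, Tm7sf2 at 0.13 and Ebp at 0.28. In these 21 libraries the median over all pairs of members was 0.62.

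**Figure D1:**
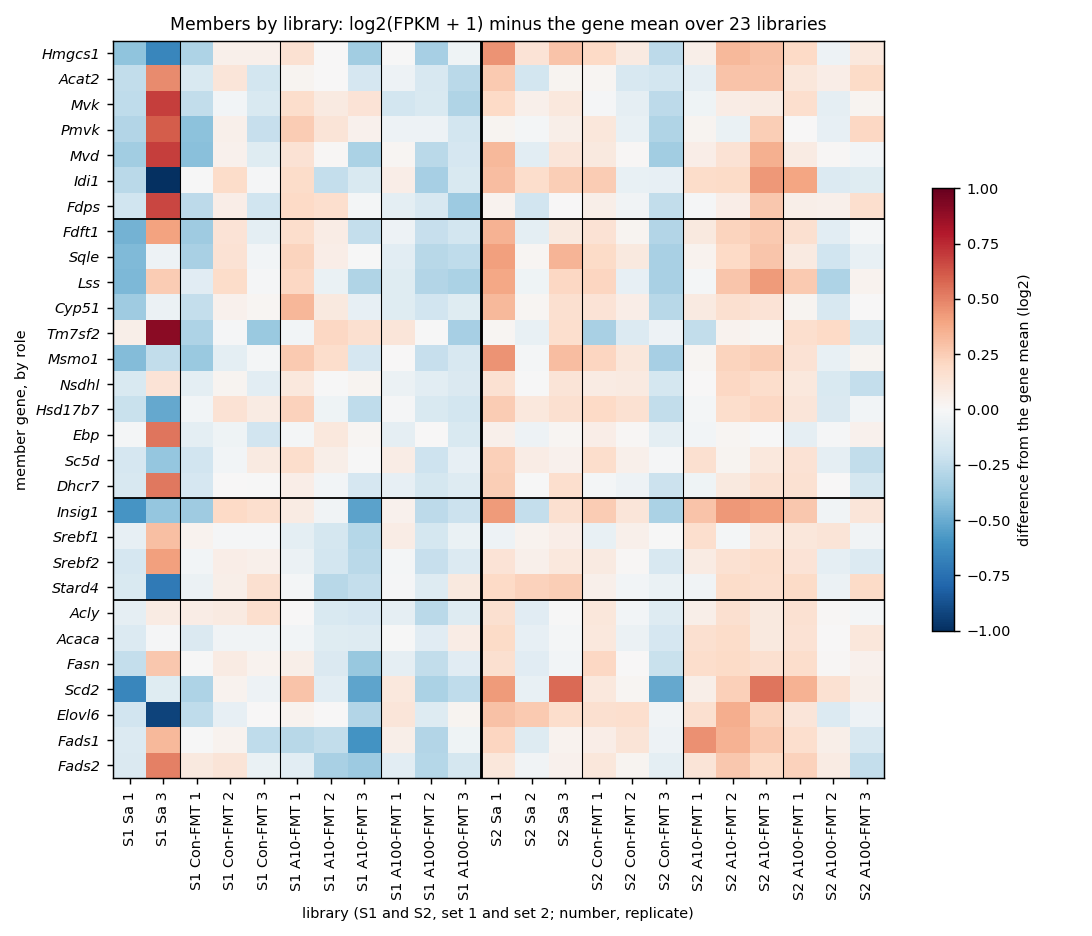
Heat map of the 29 members (rows, by role) in 23 libraries (columns, by group), as log2(FPKM + 1) minus the mean of the gene. In 6 libraries at least 25 members were above their mean, in 6 at most 5 were, and in the other 11 from 10 to 21 were. Set 1 Sa replicate 3 mixes strong increases and decreases.

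The library means show how wide this shared movement was inside a group. Averaged over the 29 members as a difference from the gene mean in log2 units, Sa of set 2 had 0.23, -0.014 and 0.14, Con-FMT of set 2 had 0.10, 0.014 and -0.20, and A10-FMT of set 1 had 0.094, -0.033 and -0.20. In Sa replicate 1 of set 2, 28 of 29 members were above their mean, and in Con-FMT replicate 3 of that set 0 of 29 were. The 12 libraries of set 2 thus spanned from -0.20 to 0.23 and the 11 of set 1 from -0.26 to 0.094. The within-group standard deviation of this mean, pooled over the 8 groups, was 0.13, and the group means ran from -0.13 (A100-FMT, set 1) to 0.16 (A10-FMT, set 2).

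**Figure D2:**
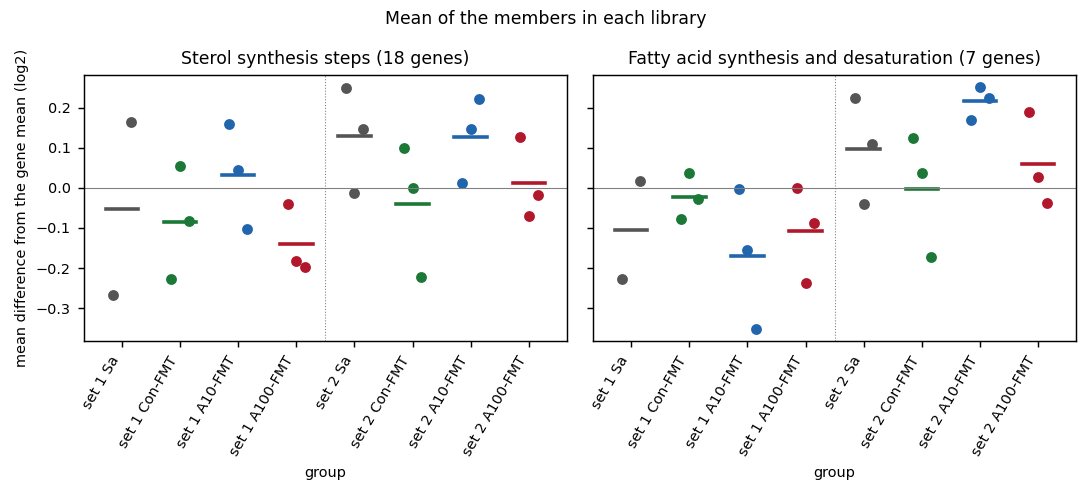
Mean difference from the gene mean (vertical axis, log2) over the 18 sterol enzymes (left) and the 7 fatty acid genes (right); points are libraries and bars group means of the 8 groups. For the fatty acid genes, the mean of A10-FMT was the lowest of the 8 groups in set 1 (-0.17) and the highest in set 2 (0.22).

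Levels were higher in set 2 than in set 1 for part of the list. Over the mean of the 4 treatments, 8 of 29 members were higher (27.6%) and 0 lower at an adjusted p under 0.05, against 10.7% of all genes tested called higher and 2.62% lower, and 27 of 29 had a positive difference. The test was limma, a linear model fitted to log2(FPKM + 1) of all genes tested, with Benjamini-Hochberg adjustment. On that scale the median difference of the members was 0.13 and that of all genes tested 0.037. Without Sa replicate 1 of set 1 the median of the members was 0.063, with 22 of 29 positive, and over all libraries left out in turn it ran up to 0.18. The 8 were Hmgcs1 and Idi1 of the mevalonate steps, Msmo1 of the later steps, Insig1 and Stard4, and Scd2, Elovl6 and Fads1 of the fatty acid part. What else differed between the sets cannot be told apart from the set itself.

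Insig1 ran from 33.9 to 59.4 FPKM with a median of 44.2 in the 11 libraries of set 1 and from 41.2 to 70.1 FPKM with a median of 59.7 in the 12 of set 2, a difference of 0.36 ± 0.098 (SE, adjusted p = 0.031). Hmgcs1 ran from 46.4 to 81.6 FPKM with a median of 71.2 in set 1 and from 61.1 to 100.4 FPKM with a median of 82.6 in set 2, a difference of 0.35 ± 0.076 (adjusted p = 0.0168). For both genes the ranges overlapped and the highest library of set 2 lay above all of set 1.

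Scd2 ran from 53.5 to 103 FPKM with a median of 77.7 in set 1 and from 58.9 to 125 FPKM with a median of 92.4 in set 2, with a difference of 0.35 ± 0.11 (adjusted p = 0.0474). Elovl6 ran from 19.3 to 40.9 FPKM with a median of 35.4 in set 1 and from 33.99 to 48.6 FPKM with a median of 42.1 in set 2, with a difference of 0.33 ± 0.072 (adjusted p = 0.0171). Again neither gene separated the sets. The differences of Idi1, Stard4, Msmo1 and Fads1 were 0.35, 0.25, 0.25 and 0.23, with adjusted p of 0.0271, 0.0212, 0.0434 and 0.0406. Sqle, at 0.20 ± 0.075 (adjusted p = 0.0772), Hsd17b7, at 0.19 ± 0.065 (adjusted p = 0.0587), and Acaca, at 0.12 ± 0.041 (adjusted p = 0.0575), did not pass, and the members with a negative value were Tm7sf2 at -0.10 ± 0.089 and Ebp at -0.031 ± 0.049.

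**Figure D3:**
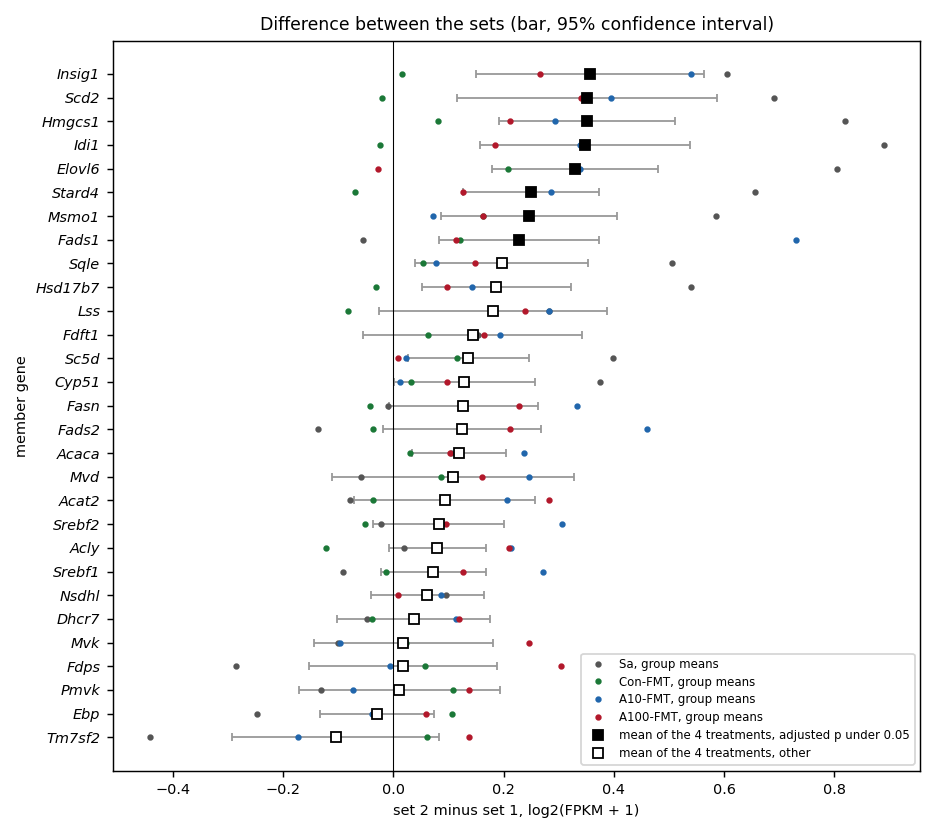
Set 2 minus set 1 in log2(FPKM + 1) (horizontal axis) for each member (rows); squares are the mean of the 4 treatments with its 95% confidence interval, filled for an adjusted p under 0.05, and points are the differences within each treatment. The Sa points of Idi1 (0.89) and Hmgcs1 (0.82) lie far right of their Con-FMT points (-0.025 and 0.081).

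Split by treatment, the set difference was not even. In Sa, 10 of the 18 sterol enzymes were higher in set 2 and 8 lower. There Idi1 differed by 0.89, Hmgcs1 by 0.82 and Stard4 by 0.66, against -0.025, 0.081 and -0.069 in Con-FMT, while Tm7sf2 differed by -0.44, Fdps by -0.28 and Ebp by -0.25 in Sa. Of the fatty acid genes, Elovl6 and Scd2 differed most in Sa, by 0.80 and 0.69, and Fads1 in A10-FMT, by 0.73, against 0.11 in A100-FMT and -0.055 in Sa. In Sa, 11 members were higher in every library of set 2 than in every library of set 1, where 25.6% of all genes tested were. In A10-FMT 10 members were, against 40.5% of all genes, in A100-FMT 5 against 17.7% and in Con-FMT 0 against 6.25%. Of these shares, that in Sa was above its background and the other 3 were not. The 9 members with a positive difference in all 4 treatments were Acaca, Cyp51, Fdft1, Hmgcs1, Insig1, Msmo1, Nsdhl, Sc5d and Sqle.

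Because Sa of set 1 held the library that stood apart, the comparison was also made without both Sa libraries of set 1, over the 3 FMT treatments. This choice was made after seeing the data. Then 6 of 29 members were higher, where 19.7% of all genes were, and 2 of them were among the 8: Fads1 (0.32, adjusted p = 0.00452) and Elovl6 (0.17, adjusted p = 0.0333) were called both ways, and Fads2 (0.21), Fasn (0.17), Srebf1 (0.13) and Acaca (0.12) were called without these libraries but not with them. Hmgcs1 then differed by 0.20 (adjusted p = 0.0955), Idi1 by 0.17 (adjusted p = 0.148) and Insig1 by 0.27 (adjusted p = 0.0783), and no enzyme of sterol synthesis passed. All 29 members had positive differences, with a median of 0.12 against 0.044 for all genes. Leaving out each library in turn gave 3 to 11 members called, with 3 without A100-FMT replicate 2 of set 1 or Sa replicate 1 of set 2 and 11 without either Sa library of set 1 or Con-FMT replicate 3 of set 2. With each library scaled to a trimmed mean, 4 members were higher and 0 lower, 23 of 29 were positive, and of all genes 350 were higher and 573 lower where 1212 and 297 were before. With array quality weights, 0 members were called, and 4 had an unadjusted p under 0.05.

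Cell markers moved with the sets. Of 7 crypt proliferation genes 5 were higher in set 2, among them Mki67 at 0.40 ± 0.091 (adjusted p = 0.0199), and of 9 enterocyte genes 4 were lower, among them Vil1 at -0.15 ± 0.031 (adjusted p = 0.0161). Of all genes tested, 10.7% were called higher and 2.62% lower. The summed level of the proliferation genes ran from 215 to 293 FPKM in set 1 and from 263 to 327 FPKM in set 2. Their part in the set difference of the members was not tested.

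In set 1, where each transplant was compared with saline, single members passed the test in both directions. With Con-FMT vs Sa, 7 of 29 members were called, 5 higher and 2 lower, where 26.9% of all genes were called (17.7% higher and 9.17% lower). With A10-FMT vs Sa, 7 were called, 4 higher and 3 lower, against 32.0% (13.6% higher and 18.4% lower). With A100-FMT vs Sa, 4 were called, 2 higher and 2 lower, against 35.2% (22.0% higher and 13.1% lower). The 3 comparisons share the Sa libraries. All 3 shares of the members (24.1%, 24.1% and 13.8%) were below those of all genes, and their median changes were 0.0047, -0.011 and -0.15 against 0.055, -0.012 and 0.052.

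Hmgcs1 was at 55.1 and 46.4 FPKM in the Sa libraries of set 1, at 58.9, 75.97 and 76.1 in Con-FMT, at 81.6, 73.3 and 57.2 in A10-FMT and at 73.01, 57.9 and 71.2 in A100-FMT. Every transplanted library was above both Sa libraries, as was the case for 18.8%, 13.9% and 22.0% of all genes in the 3 comparisons. The change from Sa on the log2(FPKM + 1) scale was 0.46 ± 0.16 with Con-FMT (adjusted p = 0.0479), 0.46 ± 0.16 with A10-FMT (adjusted p = 0.0407) and 0.40 ± 0.16 with A100-FMT (adjusted p = 0.065). Set 2 had 100.4, 80.8 and 89.8 FPKM in Sa, 84.4, 78.2 and 61.1 in Con-FMT, 76.5, 92.2 and 90.1 in A10-FMT and 84.3, 70.7 and 78.95 in A100-FMT, so that there Sa held the highest library and all groups overlapped.

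Idi1 was at 29.5 and 17.1 FPKM in Sa of set 1, 35.7, 40.7 and 35.3 in Con-FMT, 40.6, 30.1 and 31.97 in A10-FMT and 37.5, 28.1 and 31.96 in A100-FMT. Con-FMT and A10-FMT lay above both Sa libraries, by 0.70 ± 0.20 (adjusted p = 0.0266) and 0.58 ± 0.20 (adjusted p = 0.0333), while A100-FMT overlapped Sa. In set 2, Idi1 was at 44.6, 40.4 and 42.5 FPKM in Sa, 42.8, 33.9 and 33.6 in Con-FMT, 40.7, 40.9 and 48.5 in A10-FMT and 47.2, 32.3 and 32.8 in A100-FMT, with overlap throughout.

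Stard4 was at 40.1 and 26.9 FPKM in Sa of set 1, 42.9, 46.5 and 50.03 in Con-FMT, 44.05, 36.7 and 37.6 in A10-FMT and 44.2, 40.7 and 47.7 in A100-FMT, with changes of 0.49 ± 0.13 in Con-FMT (adjusted p = 0.0263) and 0.41 ± 0.13 in A100-FMT (adjusted p = 0.0228). Con-FMT and A100-FMT did not overlap Sa, and A10-FMT did. In set 2 Stard4 was at 51.4, 52.5 and 53.1 FPKM in Sa, 46.4, 43.7 and 42.5 in Con-FMT, 43.6, 50.9 and 50.2 in A10-FMT and 51.2, 42.8 and 51.2 in A100-FMT, and there all transplanted libraries were below all Sa libraries, which 10.9% of all genes showed for Con-FMT, 11.4% for A10-FMT and 10.1% for A100-FMT.

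Elovl6 was at 32.6 and 19.3 FPKM in Sa of set 1, 31.2, 35.4 and 37.7 in Con-FMT, 38.4, 37.5 and 30.4 in A10-FMT and 40.9, 34.1 and 38.1 in A100-FMT. It was called higher in all 3 groups, by 0.45 ± 0.16, 0.47 ± 0.16 and 0.56 ± 0.16 (adjusted p = 0.0421, 0.0288 and 0.0154), though only A100-FMT did not overlap Sa. In set 2 it was at 46.2, 45.3 and 42.5 FPKM in Sa, 41.97, 42.2 and 36.6 in Con-FMT, 42.05, 48.6 and 44.00 in A10-FMT and 40.8, 33.99 and 36.1 in A100-FMT. There A100-FMT and Con-FMT lay below Sa, as they did for 10.1% and 10.9% of all genes.

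Hsd17b7 was at 8.53 and 6.78 FPKM in Sa of set 1, 9.92, 11.3 and 10.8 in Con-FMT, 12.03, 9.78 and 8.32 in A10-FMT and 10.04, 9.00 and 8.80 in A100-FMT. The change in Con-FMT was 0.44 ± 0.14 (adjusted p = 0.0345). Con-FMT and A100-FMT did not overlap Sa, and A10-FMT did. The set 2 libraries had 12.2, 10.97 and 11.4 FPKM in Sa, 11.8, 11.3 and 8.38 in Con-FMT, 9.96, 11.5 and 11.8 in A10-FMT and 11.1, 9.06 and 9.90 in A100-FMT. The sterol desaturase Sc5d, called in A10-FMT alone among the set 1 comparisons with Sa, changed by 0.36 ± 0.11 (adjusted p = 0.0243).

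The members called lower included Tm7sf2, which was at 14.7 and 27.2 FPKM in Sa of set 1, 11.2, 13.9 and 10.7 in Con-FMT, 13.8, 16.4 and 15.8 in A10-FMT and 15.4, 14.02 and 10.97 in A100-FMT. Its changes were -0.71 ± 0.19 in Con-FMT (adjusted p = 0.0265) and -0.56 ± 0.19 in A100-FMT (adjusted p = 0.0361), and A100-FMT overlapped Sa. Both changes involve the Sa library at 27.2 FPKM, the highest of all 23. Without that library they were -0.29 in Con-FMT and -0.135 in A100-FMT. Over 32 alternatives the highest adjusted p of Tm7sf2 in Con-FMT was 0.968. Its values in set 2 were 14.3, 13.3 and 15.98 FPKM in Sa, 11.04, 12.7 and 13.6 in Con-FMT, 11.7, 14.5 and 14.3 in A10-FMT and 15.97, 16.3 and 12.3 in A100-FMT, with overlap.

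Ebp was at 56.9 and 84.2 FPKM in Sa of set 1, 53.96, 56.1 and 50.5 in Con-FMT, 56.9, 62.4 and 58.7 in A10-FMT and 54.4, 57.99 and 51.8 in A100-FMT. Its changes were -0.37 ± 0.11 in Con-FMT (adjusted p = 0.0278) and -0.34 ± 0.11 in A100-FMT (adjusted p = 0.0254). Con-FMT lay below both Sa libraries, a direction for which the share of all genes is not given here, whereas A100-FMT overlapped Sa. Without Sa replicate 3 of set 1 the change in A100-FMT was -0.058. Ebp of set 2 was at 60.01, 55.8 and 58.6 FPKM in Sa, 60.7, 58.4 and 54.00 in Con-FMT, 56.7, 58.6 and 57.6 in A10-FMT and 54.2, 57.4 and 59.7 in A100-FMT. Outside the 84.2 FPKM of Sa replicate 3 of set 1, its levels stayed within a 1.24-fold range, the narrowest of the list.

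These calls depended on which Sa library of set 1 was used. Replicate 3 was the highest library of all 23 for 13 members and the lowest for 6, and against replicate 1 it was more than 0.5 (log2) higher for 14 members and more than 0.5 lower for 3. Mvd was at 51.7 FPKM in replicate 3 and 24.5 in replicate 1, Fdps at 245 and 134, and Idi1 at 17.1 and 29.5. Over the 29 members the difference followed the GC content of the transcript (Pearson r = 0.77, across genes of 1 pair of libraries), with Idi1, Elovl6, Stard4, Hsd17b7, Hmgcs1 and Sc5d below 0 in replicate 3 minus replicate 1.

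**Figure D4:**
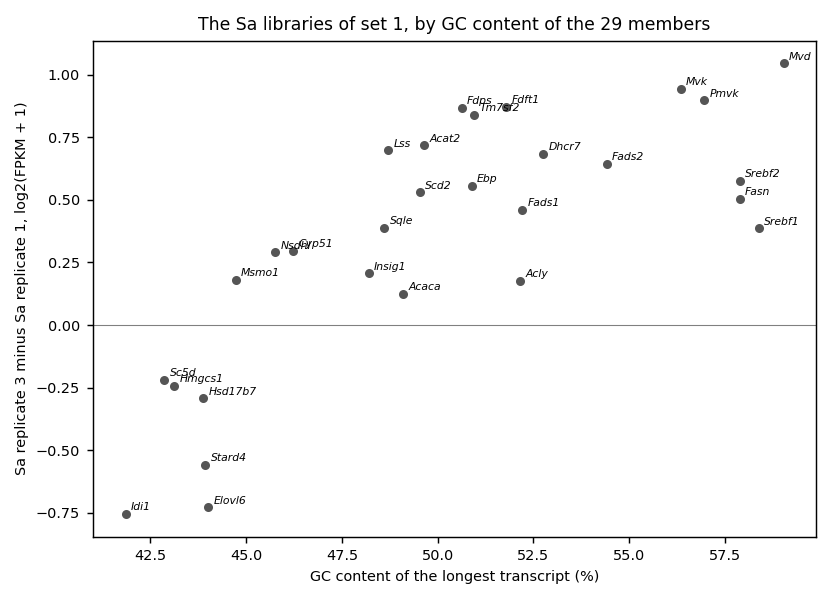
Difference between Sa replicate 3 and Sa replicate 1 of set 1 (vertical axis, log2(FPKM + 1)) against GC content of the longest transcript (horizontal axis, %) for the 29 members. The 6 members below 0 lie at the left end, from Idi1 at 41.9% to Elovl6 at 44.0% GC, and Mvd at 59.0% GC is highest at 1.05.

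Without replicate 3, 0, 1 and 0 members were called with Con-FMT, A10-FMT and A100-FMT, and without replicate 1 18, 19 and 18. With the column named in the description in place of replicate 3, the counts were 0, 9 and 0, and the changes of Elovl6 with Con-FMT and A10-FMT turned to -0.081 and -0.057. Without replicate 3 the change of Hmgcs1 was 0.34 with Con-FMT (adjusted p = 0.809) and that of Ebp -0.089 (adjusted p = 0.856), where the ranges of adjusted p over 32 alternatives were from 0.0231 to 0.869 and from 2.59e-06 to 0.856. Leaving out Con-FMT replicate 1, 2 or 3 of set 1 gave 0, 4 and 0 members with Con-FMT, leaving out A10-FMT replicate 1 or 2 gave 3 with A10-FMT, and leaving out A100-FMT replicate 1 or 3 gave 2 and 1 with A100-FMT. With array quality weights, or with each pair of groups fitted alone, 0 members were called in each of the 3 comparisons. With trimmed-mean scaling the members higher and lower were 3 and 2, 6 and 2, and 2 and 5.

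Of all members, Fads1 and Fads2, the desaturases of polyunsaturated chains, differed most between the sets in their response to A10-FMT. The other desaturase, Scd2, had a difference of -0.30 ± 0.33 (adjusted p = 0.508). Fads1 was at 20.9 and 29.1 FPKM in Sa, 22.97, 23.7 and 19.2 in Con-FMT, 18.9, 19.3 and 14.8 in A10-FMT and 24.1, 18.6 and 22.4 in A100-FMT of set 1. In set 2 it was at 26.9, 20.99 and 23.6 FPKM in Sa, 24.2, 25.3 and 22.2 in Con-FMT, 31.96, 29.6 and 27.9 in A10-FMT and 26.1, 24.1 and 20.4 in A100-FMT. The A10-FMT libraries were all below Sa in set 1 and all above Sa in set 2, and the set 2 A10-FMT libraries held the highest value of the series. The shares of all genes without overlap in these directions are not given here.

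A10-FMT vs Sa for Fads1 was -0.47 ± 0.15 in set 1 (adjusted p = 0.0248) and 0.32 ± 0.13 in set 2 (adjusted p = 0.293). The difference between these effects, tested as an interaction, was 0.79 ± 0.20 (95% confidence interval 0.36 to 1.21, adjusted p = 0.00825), which made it 1 of 3 members called among 29, where 28.4% of all genes were called (17.8% with a higher effect in set 2). Without Sa replicate 3 of set 1 the difference was 0.56 (adjusted p = 0.0677), and with array quality weights its adjusted p was 0.338, the highest over 32 alternatives, of which the lowest was 0.000545.

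Fads2 was at 96.6 and 152 FPKM in Sa, 114, 117 and 102 in Con-FMT, 99.2, 85.2 and 82.95 in A10-FMT and 99.2, 87.6 and 94.5 in A100-FMT of set 1. Its set 2 values were 116, 104 and 109.8 FPKM in Sa, 116, 109 and 99.9 in Con-FMT, 117, 129 and 122 in A10-FMT and 125, 113 and 90.6 in A100-FMT. Its change with A10-FMT was -0.44 ± 0.15 in set 1 (adjusted p = 0.0305) and 0.16 ± 0.13 in set 2 (adjusted p = 0.663), and the difference was 0.60 ± 0.20 (adjusted p = 0.0315). All A10-FMT libraries of set 2 were above those of set 1 for both desaturases, as they were for 40.5% of all genes tested.

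Srebf1 was at 31.8 and 41.9 FPKM in Sa, 34.7, 33.5 and 33.5 in Con-FMT, 31.6, 29.7 and 27.5 in A10-FMT and 35.7, 29.7 and 32.2 in A100-FMT of set 1. Set 2 had 32.7, 34.6 and 35.4 FPKM in Sa, 31.98, 35.1 and 33.7 in Con-FMT, 38.00, 33.4 and 36.5 in A10-FMT and 36.6, 37.04 and 33.02 in A100-FMT. The change with A10-FMT was -0.30 ± 0.097 in set 1 (adjusted p = 0.0286) and 0.067 ± 0.087 in set 2 (adjusted p = 0.822), and their difference was 0.36 ± 0.13 (adjusted p = 0.0453). Without Sa replicate 3 of set 1 the differences of Fads2 and Srebf1 were 0.28 and 0.17 (adjusted p = 0.272 and 0.324), and over 32 alternatives their adjusted p ran from 0.000243 to 0.361 and from 0.000712 to 0.528. Srebf1 in A10-FMT overlapped Sa in set 2 and did not in set 1, a direction for which the share of all genes is not given here.

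**Figure D5:**
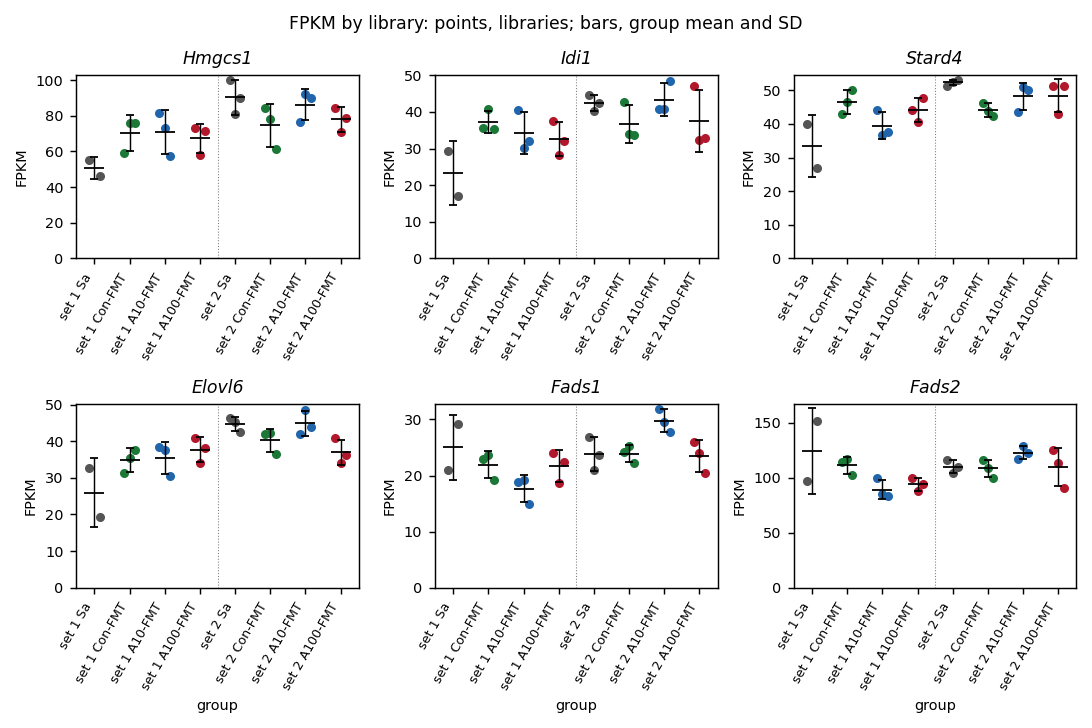
FPKM (vertical axes, from 0) of 6 members in the 8 groups; points are libraries and black bars the group mean and SD. Fads1 of A10-FMT has a mean of 17.7 FPKM in set 1, the lowest of its groups, and of 29.8 FPKM in set 2, the highest.

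Enterocyte and distal intestine markers moved with the A10-FMT groups of both sets. The summed level of the enterocyte genes was 9222 to 10759 FPKM in A10-FMT of set 1, the highest group, and 4079 to 5156 FPKM in A10-FMT of set 2, and all 9 of these genes had a lower A10-FMT effect in set 2 than in set 1 by the interaction, for example Fabp2 at -2.31 ± 0.29 (adjusted p = 0.000164). The summed level of the 7 proliferation genes was 215 to 232 FPKM and 300 to 323 FPKM in the same groups, and 4 of them had a higher effect in set 2. Of 5 distal small intestine genes, 4 were tested and all 4 had a lower A10-FMT effect in set 2 (median -1.41), with summed levels of 1293 to 1653 FPKM in A10-FMT of set 1 and 589 to 1025 FPKM in that of set 2. Of all genes tested, 28.4% were called in this interaction, 17.8% with a higher effect in set 2. The part of the markers in the desaturase values was not tested.

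For A100-FMT, 3 members differed in their response between the sets, all with a lower effect in set 2, where 26.8% of all genes were called (13.5% with a lower effect). The difference was -0.83 ± 0.21 for Elovl6 (adjusted p = 0.0136), -0.61 ± 0.22 for Hmgcs1 (adjusted p = 0.0495) and -0.53 ± 0.17 for Stard4 (adjusted p = 0.0331). In set 2 alone, A100-FMT vs Sa was -0.27 ± 0.14, -0.21 ± 0.15 and -0.12 ± 0.11 for these genes (adjusted p = 0.389, 0.567 and 0.714). Without Sa replicate 3 of set 1, 0 of the 3 differences passed, at -0.47, -0.49 and -0.25 (adjusted p = 0.11, 0.255 and 0.314), and over 32 alternatives the highest adjusted p was 0.245, 0.553 and 0.356 and the lowest 1.6e-05, 0.0208 and 0.000188. For Con-FMT, 0 members differed in response between the sets by limma, with 7 at an unadjusted p under 0.05, where 0.00882% of all genes were called.

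In set 2, 0 of 29 members passed the test in any comparison with Sa, where 0.0353%, 0.423% and 0.0353% of all genes did for Con-FMT, A10-FMT and A100-FMT. At an unadjusted p under 0.05 there were 0, 1 and 1, and array quality weights called 0, 1 and 1. For Con-FMT vs Sa, 1 of 29 members was positive (median -0.14), where 44.5% of all genes were (median -0.014). For A10-FMT 17 were positive (median 0.038), near the 59.1% of all genes (median 0.029), and for A100-FMT 9 were (median -0.11), where 58.3% of all genes were (median 0.030). With single libraries left out, the median ran from -0.24 to -0.050 for Con-FMT, from -0.031 to 0.067 for A10-FMT and from -0.17 to -0.044 for A100-FMT. Because the members moved together from library to library, these counts of signs are not 29 separate observations. The value farthest from 0 was, for Con-FMT, that of Scd2 at -0.44 ± 0.22 (adjusted p = 0.9) and, for A100-FMT, that of Sqle at -0.32 ± 0.15 (adjusted p = 0.325). Averaged over both sets, 0 members were called with each transplant, against 0.750%, 0.132% and 0.891% of all genes, with 4, 3 and 4 at an unadjusted p under 0.05.

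Whether AOS given to the donors mattered was asked by A10-FMT and A100-FMT vs Con-FMT. No member passed in either set by limma (0 of 29 in each of the 4 comparisons), where 16.7% of all genes did for A10-FMT in set 1, 0.379% in set 2, and 0.406% and 0% for A100-FMT. At an unadjusted p under 0.05 there were 4 and 2 members with A10-FMT in set 1 and set 2, and 1 and 0 with A100-FMT. In set 1, values with A10-FMT differed in sign between the roles. Of all genes, 35.6% had positive values there, with a median of -0.076. Among the members, 15 of the 18 sterol enzymes had positive values, with Pmvk at 0.34 and Tm7sf2 at 0.34. Negative values were found for 6 of 7 fatty acid genes and all 4 regulators and carriers. Fads2 was at -0.32 and Fads1 at -0.30 (adjusted p = 0.108 and 0.13). In set 2 all 29 values were positive, where 65.2% of all genes were (median 0.16, all genes 0.047), the highest being Scd2 and Insig1 at 0.41 and 0.36, with 27 of 29 positive after trimmed-mean scaling, and 3 members, Fads1, Fads2 and Insig1, did not overlap Con-FMT, as 17.0% of all genes did not in that direction. That median was 0.095, with 25 of 29 positive, without Con-FMT replicate 3 of set 2, the library with 0 of 29 members above their mean, and 0.25 without Con-FMT replicate 1.

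The difference of A10-FMT from Con-FMT in set 1 uses no Sa library, but its error is shared with them. When both Sa libraries of set 1 were left out, 6 members passed, where 32.9% of all genes did: Mvk (0.28, adjusted p = 0.0102) and Pmvk (0.34, adjusted p = 0.0348) were higher in A10-FMT, and Fads2 (-0.32, adjusted p = 0.0228), Stard4 (-0.23), Acly (-0.22) and Srebf1 (-0.19) were lower. For Mvk the Con-FMT libraries had 19.5, 22.8 and 20.9 FPKM and those of A10-FMT had 26.6, 24.97 and 25.8, without overlap in the direction that 12.2% of all genes showed. For Acly, Con-FMT had 31.2, 31.7 and 33.4 FPKM and A10-FMT had 29.7, 26.6 and 26.2, without overlap in the other direction, as for 29.8% of all genes.

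Other genes of these pathways were counted from 4 lists. Of 10 further genes listed with sterol synthesis, 0 passed between the sets, 3 were lower and 0 higher with A10-FMT vs Sa in set 1 (all genes 18.4% lower and 13.6% higher), and 2 were higher and 2 lower with A100-FMT. Those lower with A10-FMT included Acat1, the mitochondrial thiolase, at -0.20 ± 0.058 (adjusted p = 0.0148) and Dhdds, which builds dolichol, at -0.23 ± 0.076 (adjusted p = 0.029). Of 15 further fatty acid genes tested, 4 were higher in set 2 and 0 lower, where 10.7% of all genes were higher, with Lpin1, a phosphatidate phosphatase, at 0.30 ± 0.068 (adjusted p = 0.0196) and Acsl3, an acyl-CoA synthetase, at 0.25 ± 0.058 (adjusted p = 0.021). Acsl5, the intestinal acyl-CoA synthetase and the highest of that list at 366 FPKM, was higher with A10-FMT vs Sa in set 1 by 0.86 ± 0.11 (adjusted p = 0.00051), and the difference of that effect, set 2 minus set 1, was -1.23 ± 0.15 (adjusted p = 0.000159).

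Of 10 genes that process or assist SREBPs, 1 was higher and 1 lower in set 2, and 1 was higher and 2 lower with A10-FMT vs Sa in set 1, where 13.6% and 18.4% of all genes were. Insig2, the relative of Insig1, was higher by 0.48 ± 0.10 (adjusted p = 0.00262) and Scap, the SREBP escort, lower at -0.38 ± 0.085 (adjusted p = 0.00389). Of 11 tested genes of sterol uptake, storage and efflux, 0 passed between the sets, and 5 were higher and 1 lower with A10-FMT vs Sa in set 1, against the same shares of all genes. These included Lipa, the lysosomal lipase, at 0.73 ± 0.12 (adjusted p = 0.000745) and Soat2, which esterifies cholesterol, at 0.48 ± 0.13 (adjusted p = 0.00947). In set 2, 0 of the 10, 15, 10 and 11 tested genes of the 4 lists passed in any comparison with Sa. The calls in set 1 share the 2 Sa libraries with those of the synthesis genes.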

How the data were processed

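RNA-seq had been run on intestine of ICR mice (total RNA, extracted with TRIzol and sequenced on a HiSeq 2500 according to the study's methods). The authors deposited 1 table of FPKM values (mm10, by the submitters' processing notes), and the aligner is not given in the sources used here. It holds no read counts, so sequencing depth cannot be read from it and no counting interval was given. FPKM as deposited by the authors is scaled to each library's total, so a few abundant genes can shift all others.

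Columns were assigned to samples by title. For replicate 3 of Sa in set 1 the description names column 2, which was used as an alternative. log2(FPKM + 1) of the 11337 of 19215 genes that averaged 1 FPKM or more was fitted with limma 3.58.1 (R 4.3.3; trended eBayes, 8 group means, 23 libraries), with Benjamini-Hochberg adjustment over all genes tested and a threshold of 0.05. The study tested read numbers with DEGseq, which needs counts and was not used. A changed value is a log2 difference ± its standard error. The 1 FPKM added before the log understates changes of low genes. A difference between sets was tested as the effect in set 2 minus that in set 1. The script was tested on simulated data. Figures and summaries were made with Python 3.11.15 (pandas 2.3.3, numpy 2.4.6, matplotlib 3.10.9). Promoter windows came from RefSeq on GRCm38.p6 and GC content from GENCODE transcripts.

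The members, the other gene lists and the markers were chosen with earlier results of these data known. Values in every library are given for the 10 members with the largest called change, and other pathway genes were named where called or highest. The labels do not say that libraries of a group came from separate animals, so p-values measure the spread between these samples, which may be technical. Alternatives were a pseudocount of 0.1, no filter on low values, quantile and trimmed-mean scaling (20% trimmed from each side), each comparison's groups alone, the replicate number as a block, array quality weights, and each library left out. Removal of the GC trend and of both Sa libraries of set 1 were added after seeing the data.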

Additional observations from a re-analysis of the deposited data

Results flagged for a closer look

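The effect of a transplant differed between the sets for 6 members, by the interaction in limma. For A10-FMT vs Sa, set 2 minus set 1 was 0.79 for Fads1, 0.60 for Fads2 and 0.36 for Srebf1. Over 32 alternatives the difference passed the threshold in 30 for Fads1, 19 for Fads2 and 8 for Srebf1, and it was 0.56 to 1.01 for Fads1, 0.28 to 0.92 for Fads2 and 0.17 to 0.56 for Srebf1 when single libraries were left out.

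For A100-FMT vs Sa, the difference was -0.83 for Elovl6, -0.53 for Stard4 and -0.61 for Hmgcs1. It passed in 28, 22 and 9 of 32 alternatives, and with single libraries left out ran from -1.20 to -0.47, from -0.81 to -0.25 and from -0.73 to -0.49. The end of each range nearest to 0 was reached without Sa replicate 3 of set 1, as it was for Fads1, Fads2 and Srebf1.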

How the results depend on the processing

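The 8 members called between the sets fell to 4 with no filter on low values, 5 with quantile normalization, 4 with trimmed-mean scaling, 3 with the GC trend removed and 0 with array quality weights. For Con-FMT vs Sa in set 1 the 7 members became 4 with no filter, 4 with quantile normalization, 2 with the GC trend removed, and 0 with the groups compared alone, with array quality weights or with the column named in the description. For A10-FMT vs Sa in set 1 the 7 became 4 with no filter, 1 with the GC trend removed, and 0 with the groups alone or array weights. For A100-FMT vs Sa in set 1 the 4 became 7 with trimmed-mean scaling and 0 with the groups alone, array weights or the described column. In set 2, array weights called 1 member with A10-FMT and 1 with A100-FMT. A10-FMT vs Con-FMT in set 1 went from 0 to 1 with the groups alone, 3 with array weights, 7 with the described column and 6 without both Sa libraries of set 1. The 3 members whose A10-FMT effect differed between sets became 1 with no filter, with the groups alone and with the GC trend removed, and 0 with array weights. The 3 of A100-FMT became 1 with no filter and 0 with the groups alone, array weights or the described column.

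Replicate numbers did not pair the libraries: correlations of deviations ran from -0.16 to 0.18 in set 1 and from -0.35 to 0.32 in set 2 for same-numbered libraries, and from -0.23 to 0.23 and -0.35 to 0.37 for others. With the replicate block, A10-FMT vs Sa in set 1 had 4 members and set 2 vs set 1 had 6.

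Leaving out 1 library gave 0 to 18 members for Con-FMT, 1 to 19 for A10-FMT and 0 to 18 for A100-FMT vs Sa in set 1, 0 to 15, 0 to 12 and 0 to 16 over both sets, 0 to 6 for A10-FMT vs Con-FMT in set 1, and 3 to 11 between the sets. For the differences of effects it gave 0 to 12 (Con-FMT), 1 to 19 (A10-FMT) and 0 to 18 (A100-FMT). The upper ends other than 6 and 11 came without Sa replicate 1 of set 1. Counts between the sets fell to 3 to 5 without Con-FMT 2, A10-FMT 3 or A100-FMT 2 of set 1 or Sa 1, Sa 3, Con-FMT 1, Con-FMT 2, A10-FMT 2, A10-FMT 3 or A100-FMT 1 of set 2. With both Sa libraries of set 1 kept, the A10-FMT differences fell to 1 without A10-FMT 2 of set 1, or Sa 3 or A10-FMT 3 of set 2. Without Sa 3 of set 1, these differences were 0.56 for Fads1, 0.28 for Fads2, 0.17 for Srebf1 and -0.47 for Mvk. The A100-FMT differences came to 1 without A100-FMT 1 or 3 of set 1 or Sa 2, Sa 3 or A100-FMT 2 of set 2, and to 5 without A100-FMT 2 of set 1.

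With the described column, values turned in sign to -0.081 for Elovl6 with Con-FMT, to -0.057 for Elovl6, 0.39 for Mvk, 0.43 for Pmvk and 0.33 for Fdps with A10-FMT, and to 0.13 for Tm7sf2 with A100-FMT, all vs Sa in set 1, and to -0.47 for Mvk in the A10-FMT difference. With single libraries left out, Mvk ran from -0.55 to 0.39 with A10-FMT and from -0.47 to 0.47 in that difference, the reversed ends (0.39 and -0.47) being without Sa replicate 3 of set 1. The cause was not tested. Depth is unknown, and 2 Sa libraries in set 1 limit every comparison made with them.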
